A study of Mus musculus with 8 samples.

Results

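The 38 genes described here mark T cells, natural killer (NK) cells and B cells, or encode the molecules with which these lymphocytes act. They were chosen by symbol: 21 genes of the T cell lineage, 9 NK and cytotoxic genes and 8 genes of B and plasma cells. All 38 were matched among the 35975 genes to which the deposited transcripts were summed, and each had at least 1 estimated count in some library. Of them, 20 passed the filter on low counts that left 13343 genes for testing. The tissue was subcutaneous syngeneic fibrosarcoma, a connective tissue tumor, grown in wild-type (WT C57BL/6) mice without any further allele or treatment named in the labels. Tumors were digested with collagenase and DNase, red cells were lysed, and the cells were run over magnetic columns. The iron positive group (4 libraries) was the eluate that the columns had retained, and the iron negative group (4 libraries) was the flowthrough. The labels tag the libraries of each group 3L, 3R, 4R and 5L. They give no age, name no antibody sort and do not say whether different tags mean different animals, so p-values rest on library-to-library spread, which may be technical.

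T cells recognise antigen through a receptor whose CD3 chains signal inward, with CD4 or CD8 as co-receptors. NK cells and cytotoxic T cells kill through perforin and granzymes, and B cells carry membrane immunoglobulin with the CD79 chains and, as plasma cells, secrete it. In tumors, lymphocytes of these kinds are commonly found beside macrophages, which are the cells named in the series title.

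Most lymphocyte genes were near the limit of detection in both fractions, and the immunoglobulin heavy chain gene Ighm and the co-receptor gene Cd4 were the exceptions that also differed. Both fell in the iron positive libraries, and no member rose. Of the 20 members tested, 0 were higher and 2 lower (edgeR quasi-likelihood test, adjusted p under 0.05), where 8.49% of all tested genes were called higher and 5.21% lower. At an unadjusted p under 0.05, edgeR counted 0 members higher and 9 lower, where 17.1% of all tested genes were higher and 14% lower. DESeq2 called 0 members higher and 4 lower, with 12.8% and 8.02% of its tested genes called, and voom 0 and 2, with 1.42% and 2.05%. Pairing libraries of equal tag gave 1 higher and 7 lower, with 12.8% and 9.39% of all tested genes called. Of the 20 fold changes, 16 were negative, and their median log2 value was -0.70 against -0.01 for all tested genes. By lineage, 1 of 14 tested T cell genes, 0 of 3 tested NK and cytotoxic genes and 1 of 3 tested B and plasma cell genes were lower. In a bulk sample, fewer cells of a type and less RNA per cell cannot be told apart.

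Levels are given as CPM, each library's counts scaled to a common total with TMM factors, unless TPM, which is per transcript length, is named. The mean level stayed under 5 CPM in both fractions for 35 of the 38 members and under 1 CPM for 22. At 19.04 to 24.31 M estimated counts per library, a single count corresponded to 0.0435 to 0.0504 CPM. The members above 5 CPM in either fraction were Ighm, Cd4 and Cd79b. By mean TPM over all 8 libraries, Ighm ranked 3029 of 13343 tested genes, Cd4 6831 and Cd79b 8889, while each of the other 17 tested members had at least 81.2% of the tested genes above it. The libraries of the 2 fractions did not overlap for 5 members, all lower in the iron positive fraction: Ighm, Cd4, Cd5, Klrk1 and Tbx21. Tbx21 was not tested, so 4 of the 5 were among the 20 tested members. Among all tested genes, 10.3% lay without overlap below and 11.2% above.

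**Figure D1:**
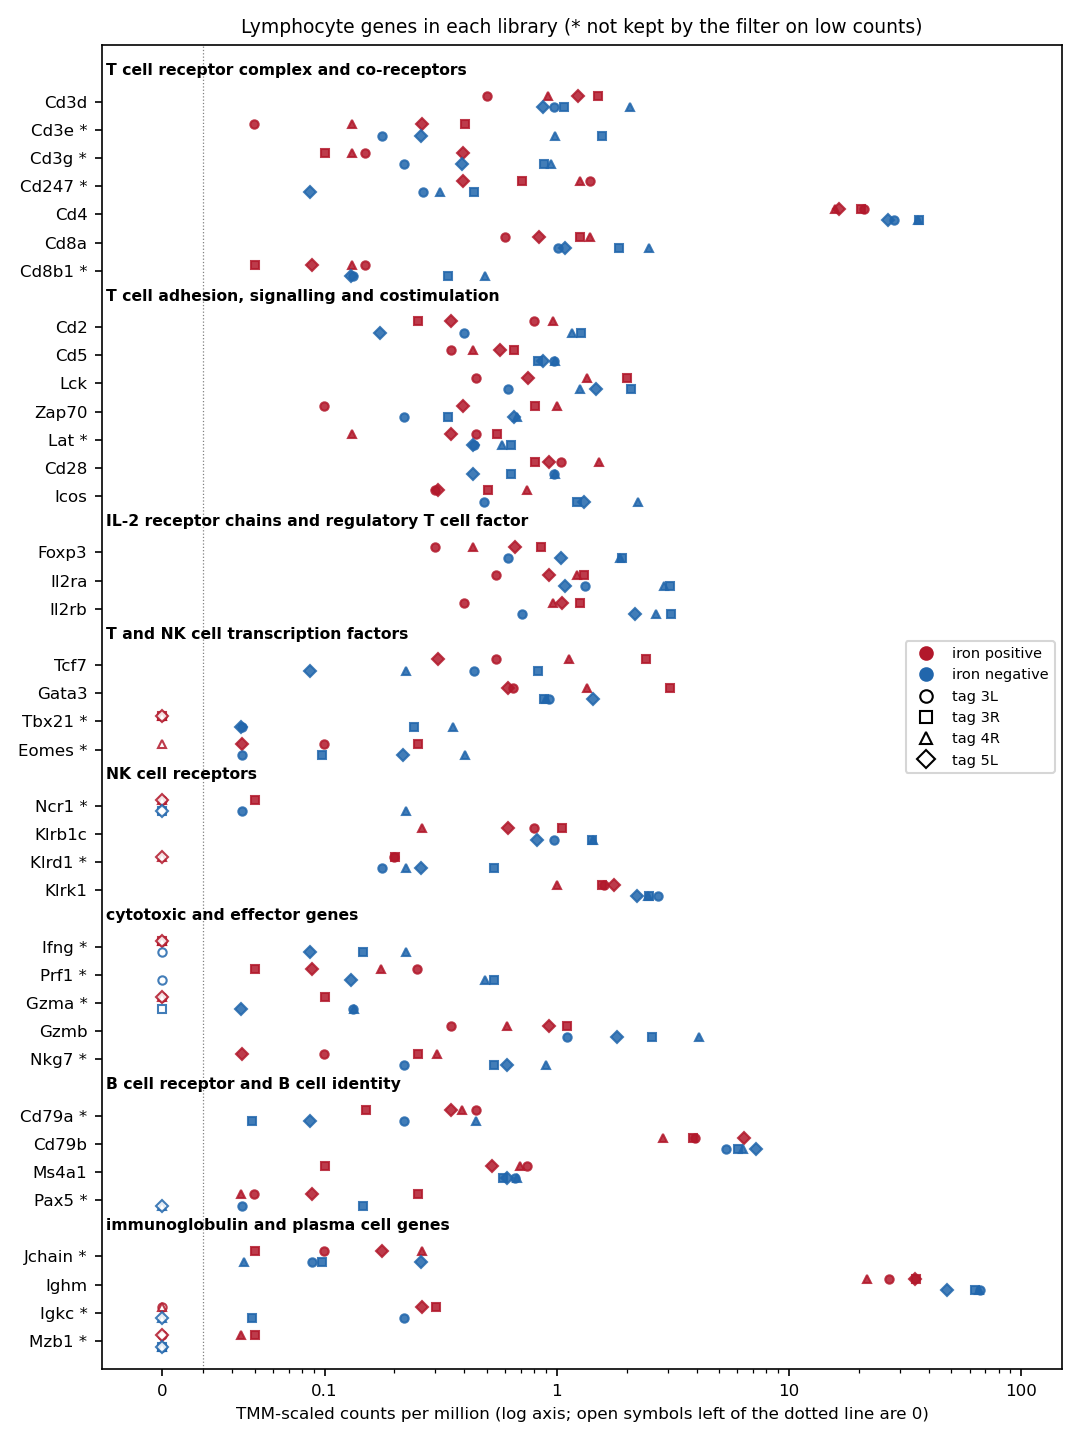
TMM-scaled CPM (log axis) of each of the 38 lymphocyte genes in each library, with 1 symbol per library, iron positive in red above iron negative in blue, the tag given by the symbol's shape and values of 0 left of the dotted line. Ighm and Cd4 lie furthest right, and their red symbols lie left of their blue symbols without overlap.

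Ighm encodes the constant region of the IgM heavy chain, and its transcript ends in either of 2 ways. The gene lies on the minus strand at chr12:113418558-113422730 (GRCm38, GENCODE M21). Reading into the end of the last constant exon gives the secreted form, transcript Ighm-201, while splicing from within that exon to 2 short membrane exons gives the B cell receptor form, transcript Ighm-202. The coding ends are shown because they are part of what lets reads be assigned to a form. The untranslated bases beyond each stop codon, which are not shown, differ between the forms as well. They are written from 5′ to 3′ on the minus strand with 18 shared bases in lower case and the bases of each form alone, up to and including the stop codon, in capitals. The 62 capitals of the secreted form lie at chr12:113420867-113420928. The 125 capitals of the membrane form lie at chr12:113418953-113419068 and chr12:113418826-113418834.
secreted-form end: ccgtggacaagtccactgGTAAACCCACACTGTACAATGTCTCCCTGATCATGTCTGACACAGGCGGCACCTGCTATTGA
membrane-form end: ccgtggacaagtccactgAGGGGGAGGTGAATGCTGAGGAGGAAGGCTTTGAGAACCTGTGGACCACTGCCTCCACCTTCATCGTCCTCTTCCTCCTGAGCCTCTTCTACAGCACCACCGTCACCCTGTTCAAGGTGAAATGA

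The whole gene fell in the iron positive fraction. Ighm had 26.9 (3L), 35.3 (3R), 21.6 (4R) and 35.0 (5L) CPM in the iron positive libraries, against 66.8 (3L), 63.2 (3R), 65.6 (4R) and 47.9 (5L) CPM in the iron negative libraries. Every iron positive library lay below every iron negative one, and the 5L pair was the closest. The log2 fold change was -1.03 ± 0.17 (SE; adjusted p = 0.0173), and with the tag as a block it was -1.05 (adjusted p = 0.00977). Leaving out any of the iron negative libraries ended the call in edgeR: the adjusted p was 0.0625 without 3L, 0.0528 without 3R, 0.0634 without 4R and 0.0525 without 5L, with log2 fold changes of -1.14 to -0.98.

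Both IgM forms were lower in the iron positive fraction by about the same factor. The secreted form averaged 16 ± 4.89 CPM in the iron positive libraries and 33.0 ± 4.40 CPM in the iron negative libraries (SD, n = 4 each). The membrane form averaged 13.7 ± 2.23 CPM in the iron positive libraries and 27.9 ± 5.24 CPM in the iron negative libraries. The log2 ratio of these means was -1.04 for the secreted and -1.02 for the membrane form. The secreted form took 47.9% (3L), 60.2% (3R), 50.5% (4R) and 54.0% (5L) of the Ighm counts in the iron positive libraries, and 57.4% (3L), 51.6% (3R), 51.0% (4R) and 57.5% (5L) in the iron negative libraries. These shares overlapped, with means of 53.1% ± 5.35 and 54.4% ± 3.56 and a two-sided exact permutation p of 0.657, where the smallest possible with 4 against 4 libraries is 0.0286. The forms share most of their sequence, so kallisto divided the shared reads between them by estimate.

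The genes whose products pair with the IgM heavy chain were close to 0. Over all 8 libraries Ighm collected 7905 estimated counts. The 113 heavy chain variable segments (Ighv) of the annotation together held 39 counts, or 4.93 per 1000 Ighm counts, and the 4 joining segments (Ighj) held 54. Igkc, the constant region of the kappa light chain, had 12 counts in the iron positive and 6 in the iron negative libraries, and was absent from 4 of the 8. That is 2.28 Igkc counts per 1000 Ighm counts. The 100 kappa variable segments had 17 counts in the iron positive and 5 in the iron negative libraries, and Iglc2, a lambda constant region, had 7 and 1. Ighd, the IgD heavy chain gene that follows Ighm on the chromosome, had 23 counts in the iron positive and 49 in the iron negative libraries. The annotation holds germline segments, and reads across a rearranged junction may go uncounted.

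**Figure D2:**
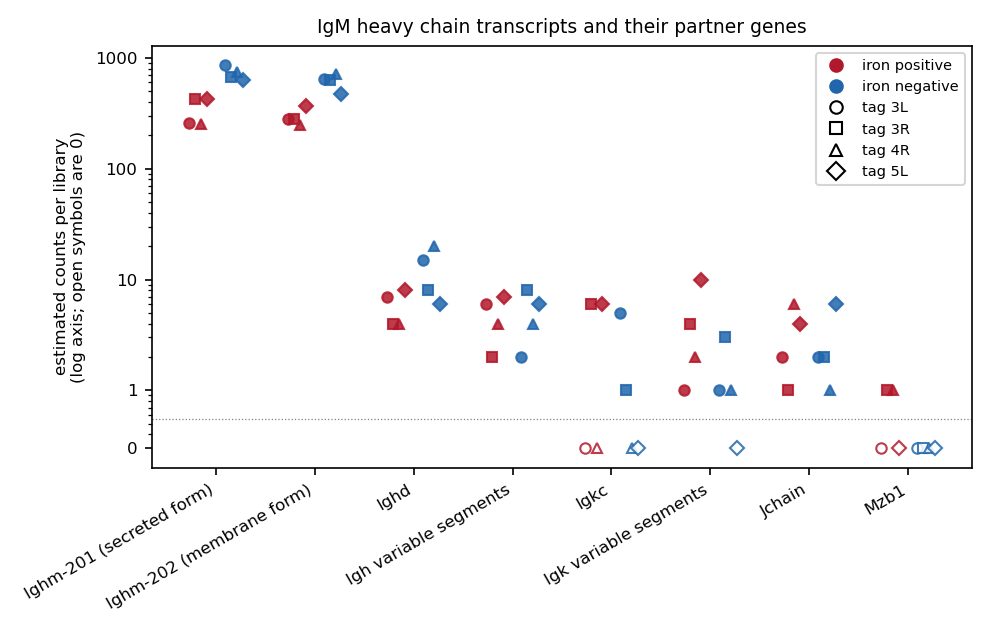
Estimated counts per library (log axis) of the secreted and membrane Ighm transcripts and of genes whose products join or assemble IgM, iron positive in red and iron negative in blue, with 1 symbol per library and 0 below the dotted line. Both Ighm transcripts lie far higher, while Igkc, the variable segments, Jchain and Mzb1 hold 10 or fewer counts in every library and Ighd 20 or fewer.

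The plasma cell genes Jchain and Mzb1 were as sparse. Jchain, which joins IgM and IgA into polymers, had 13 counts in the iron positive and 11 in the iron negative libraries, and 91.7% of them were assigned to a transcript with a retained intron. Mzb1, an endoplasmic reticulum factor of antibody secretion, had 2 counts in the iron positive and 0 in the iron negative libraries, all on a retained-intron transcript. Neither passed the filter on low counts.

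Of the other B cell genes, Cd79b was measured well and Cd79a barely. These encode the beta and alpha chains that signal for the B cell receptor. Cd79b had 3.94 (3L), 3.88 (3R), 2.88 (4R) and 6.43 (5L) CPM in the iron positive libraries, against 5.35 (3L), 6.04 (3R), 6.31 (4R) and 7.22 (5L) CPM in the iron negative libraries. It was lower in the iron positive library of all 4 pairs, but iron positive 5L lay above 3 of the iron negative libraries, and the log2 fold change of -0.54 ± 0.24 (adjusted p = 0.168) did not pass. Without iron positive 5L it was -0.81 (adjusted p = 0.0234). Cd79a had 29 counts in the iron positive and 18 in the iron negative libraries. Summed over libraries, Cd79b TPM was 14.9 times Cd79a TPM in the iron positive and 34.1 times in the iron negative fraction.

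Ms4a1, the gene of CD20, averaged 0.519 ± 0.294 CPM in the iron positive and 0.632 ± 0.042 CPM in the iron negative libraries, with a log2 fold change of -0.28 ± 0.47 (adjusted p = 0.733). Of its counts, 46.8% were assigned to a transcript with a retained intron, which does not encode the protein. Its fold change turned to 0.05 without iron positive 3R and to 0.02 when libraries were scaled to a list of macrophage genes. Pax5, the transcription factor that keeps B cell identity, had 9 counts in the iron positive and 4 in the iron negative libraries and was not tested.

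Among the 21 T cell members, Cd4 stood apart in level. Cd4 (chr6:124864692-124888221, minus strand, GRCm38) encodes the co-receptor for MHC class II. In rats and humans, monocytes and macrophages carry CD4 as well. Cd4 had 21 (3L), 20.4 (3R), 15.8 (4R) and 16.5 (5L) CPM in the iron positive libraries, against 28.3 (3L), 36.3 (3R), 36.0 (4R) and 26.7 (5L) CPM in the iron negative libraries. The groups did not overlap, and each pair differed in the same direction. The log2 fold change was -0.79 ± 0.14 (adjusted p = 0.0177), and -0.79 with the tag as a block (adjusted p = 0.00699). As with Ighm, the edgeR call was lost without any 1 of the iron negative libraries, at adjusted p = 0.0625 (3L), 0.0530 (3R), 0.0634 (4R) and 0.0527 (5L). No tested gene passed without 3L, 3R or 4R, so only the fit without 5L could have kept the call of Cd4.

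Among genes for chains of the T cell receptor that CD4 works with, Cd3e and Trac were far below Cd4, while Trbc2 was closer to it. Of the Cd4 counts, 97.5% were assigned to a single coding transcript of 3108 bases. Summed over libraries, Cd4 TPM was 37.3 times Cd3e TPM in the iron positive and 17.2 times in the iron negative fraction. Against Trac, the constant region of the receptor's alpha chain, the ratio was 9.02 in the iron positive and 4.89 in the iron negative fraction. Against Csf1r, the macrophage growth factor receptor gene, Cd4 TPM was 1.10% ± 0.241 in the iron positive and 1.16% ± 0.170 in the iron negative libraries (SD, n = 4 each; two-sided exact permutation p = 0.714). The same ratio for Ighm was 3.25% ± 0.459 and 4.09% ± 0.652, with an exact permutation p of 0.0857. These were 2 of 5 such ratios, computed after the levels were known, and after Benjamini-Hochberg adjustment over the 5 the p-values are 0.714 and 0.429. Csf1r itself was lower in the iron positive fraction, at a log2 fold change of -0.61 ± 0.11 (adjusted p = 0.0177). It stayed lower when libraries were scaled to a list of macrophage genes (-0.29, adjusted p = 0.036). The ratios are thus taken against a gene that also fell, and do not stand for macrophage RNA as a whole.

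Cd3d, Cd3e, Cd3g and Cd247 encode the signalling chains of the T cell receptor. Cd3d averaged 1.04 ± 0.435 CPM in the iron positive and 1.24 ± 0.550 CPM in the iron negative libraries, with a log2 fold change of -0.26 ± 0.41 (adjusted p = 0.712). The groups overlapped, and the sign turned without iron negative 4R (log2 fold change 0.10). Cd3e had 18 counts in the iron positive and 64 in the iron negative libraries, and Cd3g had 17 and 53. Neither was tested after the filter. Retained-intron transcripts took 13.4% of the Cd3e and 12.9% of the Cd3g counts. Most of the iron negative counts of both genes came from 3R and 4R, where Cd3e reached 1.56 and 0.985 CPM.

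Cd247, the zeta chain, had more counts in the iron positive fraction, 80 against 24. It had 1.40 (3L), 0.706 (3R), 1.26 (4R) and 0.396 (5L) CPM in the iron positive libraries, against 0.265 (3L), 0.439 (3R), 0.313 (4R) and 0.0870 (5L) CPM in the iron negative libraries. All 4 pairs were higher in the iron positive library, although iron positive 5L fell below iron negative 3R. It missed the filter. With every gene of at least 1 count tested, the log2 fold change was 1.74 (adjusted p = 0.0817). Cd247 overlaps Pou2f1 on the opposite strand, and the sources used here do not say whether strand was used in counting, so reads of the 2 genes may not be separable.

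Cd8a and Cd8b1 encode the CD8 co-receptor, which marks cytotoxic T cells. Cd8a averaged 1.02 ± 0.370 CPM in the iron positive and 1.62 ± 0.705 CPM in the iron negative libraries, lower in all 4 pairs, with a log2 fold change of -0.65 ± 0.39 (adjusted p = 0.291). Cd8b1, the beta chain, had 9 counts in the iron positive and 24 in the iron negative libraries. Summed Cd4 TPM was 19.4 times Cd8a TPM in the iron positive and 22.2 times in the iron negative fraction.

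The adhesion, signalling and costimulation genes did not share a direction. Cd5, an inhibitory receptor of T cells and a B cell subset, had 0.349 to 0.655 CPM in the iron positive and 0.83 to 0.985 CPM in the iron negative libraries. The groups did not overlap, but with 43 against 81 counts in all, the log2 fold change of -0.85 ± 0.27 did not pass (adjusted p = 0.0693). Lck, the kinase that starts receptor signalling, averaged 1.14 ± 0.694 CPM in the iron positive and 1.36 ± 0.610 CPM in the iron negative libraries. Cd2, an adhesion receptor, averaged 0.590 ± 0.342 CPM in the iron positive and 0.751 ± 0.546 CPM in the iron negative libraries. Zap70, the kinase that binds phosphorylated CD3 and zeta chains, averaged 0.576 ± 0.406 CPM in the iron positive and 0.471 ± 0.225 CPM in the iron negative libraries. For these last 3 genes the log2 fold changes of -0.25 (Lck), -0.33 (Cd2) and 0.29 (Zap70) were smaller than their SEs of 0.51, 0.65 and 0.62, and the sign of each turned when single libraries were left out.

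Cd28 and Icos encode related costimulatory receptors, Icos appearing after activation. Cd28 averaged 1.08 ± 0.316 CPM in the iron positive and 0.756 ± 0.269 CPM in the iron negative libraries. It was higher in the iron positive library of all 4 pairs, with a log2 fold change of 0.51 ± 0.34 (adjusted p = 0.352, and 0.237 with tags paired). Icos had 0.299 (3L), 0.504 (3R), 0.741 (4R) and 0.308 (5L) CPM in the iron positive libraries, against 0.486 (3L), 1.22 (3R), 2.24 (4R) and 1.30 (5L) CPM in the iron negative libraries. The groups overlapped because tag 3L was low in both fractions, while every pair was lower in the iron positive library. The log2 fold change was -1.49 ± 0.50 (adjusted p = 0.0812), and with the tag as a block it was -1.46 (adjusted p = 0.0221). Lat, the adaptor that Zap70 phosphorylates, had 31 counts in the iron positive and 46 in the iron negative libraries and was not tested.

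Foxp3, Il2ra and Il2rb are genes of regulatory and activated T cells. Foxp3, the master transcription factor of regulatory T cells, had 0.299 (3L), 0.857 (3R), 0.436 (4R) and 0.660 (5L) CPM in the iron positive libraries, against 0.619 (3L), 1.90 (3R), 1.88 (4R) and 1.04 (5L) CPM in the iron negative libraries. Il2ra, the alpha chain of the interleukin-2 receptor, had 0.548 (3L), 1.31 (3R), 1.22 (4R) and 0.925 (5L) CPM in the iron positive libraries, against 1.33 (3L), 3.07 (3R), 2.91 (4R) and 1.09 (5L) CPM in the iron negative libraries. Il2rb, the beta chain that the interleukin-15 receptor also uses, had 0.399 (3L), 1.26 (3R), 0.959 (4R) and 1.06 (5L) CPM in the iron positive libraries, against 0.707 (3L), 3.12 (3R), 2.69 (4R) and 2.17 (5L) CPM in the iron negative libraries. For all 3 genes every pair was lower in the iron positive library, the groups overlapped, and the iron negative values were highest in 3R and 4R. Without the pairing none passed: the log2 fold changes were -1.26 ± 0.45 for Foxp3 (adjusted p = 0.0990), -1.06 ± 0.42 for Il2ra (adjusted p = 0.128) and -1.23 ± 0.49 for Il2rb (adjusted p = 0.124). All 3 passed once tags were paired, at -1.24 (adjusted p = 0.0395), -1.01 (adjusted p = 0.0427) and -1.20 (adjusted p = 0.0166). Foxp3 overlaps Ccdc22 and Ppp1r3f on the opposite strand, which carries the same doubt about strand, and 14.1% of its counts lay on a transcript marked for nonsense-mediated decay.

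The transcription factors differed among themselves. Tcf7, which keeps naive and memory-like T cells, had 0.548 (3L), 2.42 (3R), 1.13 (4R) and 0.308 (5L) CPM in the iron positive libraries, against 0.442 (3L), 0.83 (3R), 0.224 (4R) and 0.0870 (5L) CPM in the iron negative libraries. Each pair was higher in the iron positive library, with a log2 fold change of 1.48 ± 0.76 (adjusted p = 0.229), and once tags were paired it was 1.44 (adjusted p = 0.0464). Without iron positive 3R, its highest library, the fold change was 0.76 (adjusted p = 0.511), and without tag 3R in both fractions the blocked value was 1.39 (adjusted p = 0.136). Gata3, the factor of type 2 helper cells, averaged 1.42 ± 1.15 CPM in the iron positive and 1.03 ± 0.268 CPM in the iron negative libraries, with a log2 fold change of 0.45 ± 0.52 (adjusted p = 0.600) that became -0.24 without iron positive 3R. By TPM Gata3 was lower in the iron positive fraction, at 0.622 ± 0.520 against 0.809 ± 0.731, and it overlaps 4930412O13Rik and 9230102O04Rik.

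Tbx21 encodes T-bet, the factor of type 1 helper, NK and cytotoxic cells. It had 0 counts in all 4 iron positive libraries, against 15 counts over the iron negative libraries, where each held at least 1. Set against a floor of 3 counts over the iron positive group, the observed iron negative level was 4.83-fold higher. The counting error of the 15 counts is not included, so this is not a lower bound. Eomes, its relative, had 8 counts in the iron positive and 17 in the iron negative libraries. Ifng, the interferon gamma gene that T-bet drives, had 0 counts in the iron positive libraries and 10 in 3 of the iron negative libraries. Its observed iron negative level was 3.22-fold above the same floor, with the same limit. Neither Tbx21 nor Ifng passed the filter, and their adjusted p-values with all genes of at least 1 count tested were 0.0835 and 0.131.

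Of the 3 tested NK and cytotoxic genes, 0 passed in edgeR, where 5.21% of all tested genes were called lower. At an unadjusted p under 0.05, edgeR counted 2 lower, where 14% of all tested genes were lower. DESeq2 called 2 lower, where 8.02% of its tested genes were called lower. With 3 genes, these counts are a description only. Each of the 3 was lower in all 4 pairs. Klrk1, which encodes the activating receptor NKG2D, had 1.59 (3L), 1.56 (3R), 1.0 (4R) and 1.76 (5L) CPM in the iron positive libraries, against 2.74 (3L), 2.49 (3R), 2.46 (4R) and 2.22 (5L) CPM in the iron negative libraries. The groups did not overlap. The log2 fold change was -0.74 ± 0.22 (adjusted p = 0.0557, and 0.0623 with tags paired), while DESeq2 on the same counts gave an adjusted p of 0.0362. Klrb1c, the NK1.1 antigen, averaged 0.684 ± 0.335 CPM in the iron positive and 1.16 ± 0.308 CPM in the iron negative libraries, lower in all 4 pairs, with a log2 fold change of -0.77 ± 0.41 (adjusted p = 0.240). Klrd1, the CD94 chain, had 8 counts in the iron positive and 26 in the iron negative libraries. Ncr1, the NK receptor NKp46, had 1 and 6.

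Gzmb, a granzyme of cytotoxic T and NK cells, had the largest negative fold change among the tested members. It had 0.349 (3L), 1.11 (3R), 0.610 (4R) and 0.925 (5L) CPM in the iron positive libraries, against 1.10 (3L), 2.58 (3R), 4.12 (4R) and 1.83 (5L) CPM in the iron negative libraries. Every pair was lower in the iron positive library, and iron positive 3R overlapped iron negative 3L by a narrow margin. The log2 fold change was -1.68 ± 0.48 (adjusted p = 0.0509), -1.64 once tags were paired (adjusted p = 0.0206), and -1.68 in DESeq2 (adjusted p = 0.0105). The other granule genes were too sparse to test. Nkg7, a granule membrane protein, had 15 counts in the iron positive and 50 in the iron negative libraries, Prf1 (perforin) 12 and 25, and Gzma 2 and 7.

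**Figure D3:**
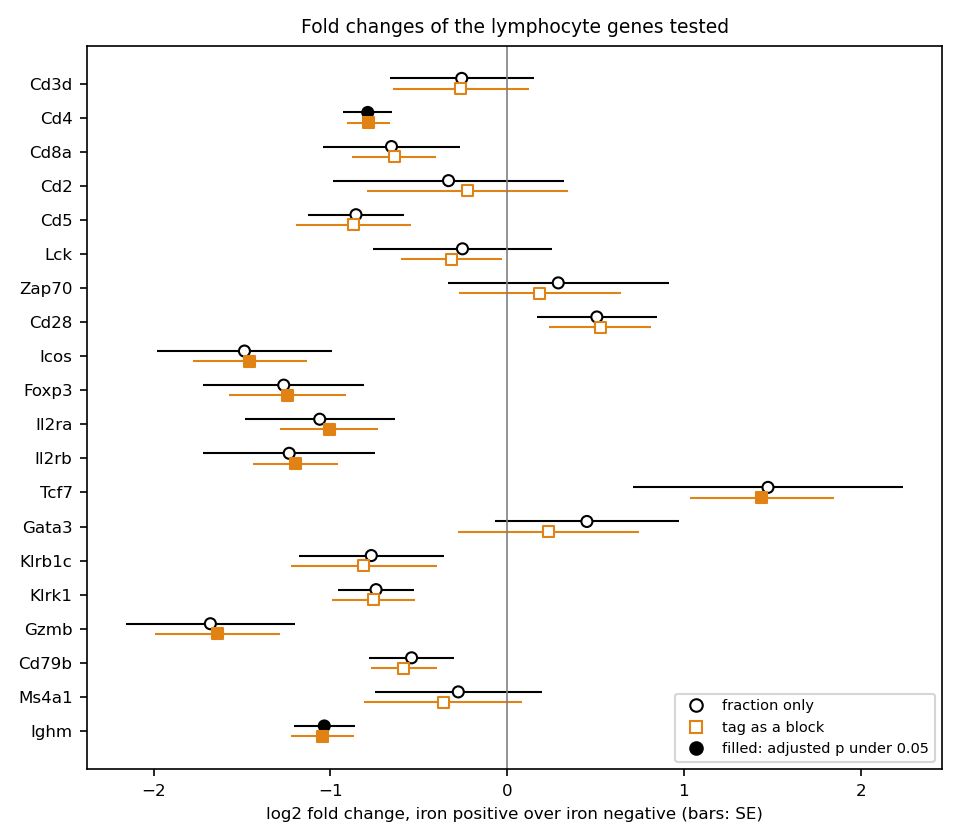
Log2 fold change of iron positive over iron negative for each of the 20 tested lymphocyte genes (bars, SE), with circles for the fit on fraction alone and squares for the one blocked by tag, filled where the adjusted p is under 0.05. Only the circles of Cd4 and Ighm are filled, while the squares of Icos, Foxp3, Il2ra, Il2rb, Gzmb and Tcf7 are filled as well.

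Pairing the libraries by tag raised the number of members called. With the tag as a block, 7 members were lower and 1 higher, where 9.39% of all tested genes were called lower and 12.8% higher in that fit. The 2 members called without the block were called with it, and 6 were called with it only: Icos, Foxp3, Il2ra, Il2rb and Gzmb as lower and Tcf7 as higher. These 6 calls did not hold in every fit with a tag left out. Without tag 4R none of the 6 passed and 2 members were lower, while without 3L, 3R or 5L there were 4, 4 and 6 lower. Over all tested genes, the lower ones went from 1253 to 207 without 4R, 262 without 3L, 826 without 3R and 967 without 5L. The higher ones went from 1705 to 714 without 4R, so the loss of calls was shared by the tested genes as a whole. The blocked adjusted p without 4R was 0.120 for Icos, 0.160 for Foxp3, 0.180 for Il2ra, 0.0918 for Il2rb, 0.0787 for Gzmb and 0.186 for Tcf7, against 0.0437 for Ighm and 0.0290 for Cd4. Leaving out the other tags ended calls too: Icos without 5L (0.0655), Foxp3 without 3L (0.0992) or 3R (0.0874), and Il2ra without 3L (0.134) or 3R (0.117). The same held for Il2rb without 3R (0.0502), Gzmb without 3L (0.0653), and Tcf7 without 3R (0.136) or 5L (0.0912).

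**Figure D4:**
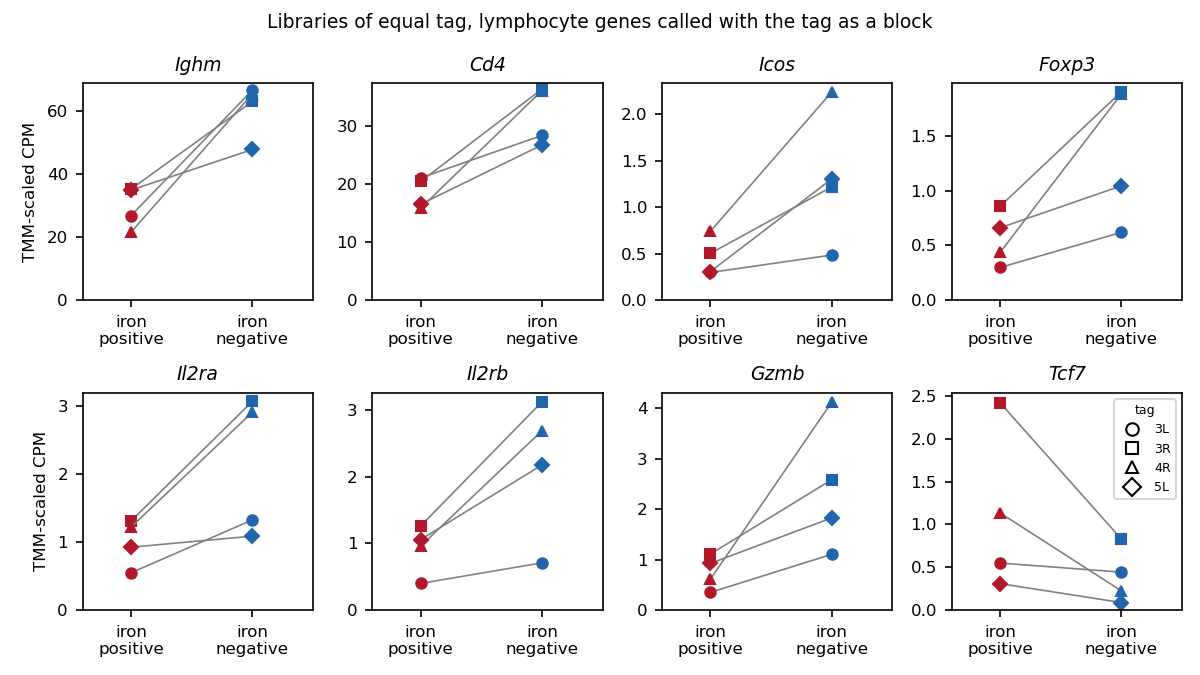
TMM-scaled CPM of the 8 lymphocyte genes called with the tag as a block, iron positive left and iron negative right, with a line joining libraries of equal tag. The lines of Ighm, Cd4, Icos, Foxp3, Il2ra, Il2rb and Gzmb all rise to the iron negative side and those of Tcf7 all fall, while the slopes differ between tags.

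The 18 members that the filter removed were described without it. With every gene of at least 1 count tested, 12 of them had a negative and 6 a positive log2 fold change, 0 passed, and 6 had an unadjusted p under 0.05. The share of all 21853 genes of that fit under the same p is not given here, so this count is a description only. The positive ones were Cd247, Cd79a, Pax5, Jchain, Igkc and Mzb1, so 5 of the 6 belong to the B and plasma cell genes. Their counts were 12 or fewer in each fraction for Pax5, Igkc and Mzb1.

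Several genes shared by all leukocytes and several macrophage genes fell in the iron positive fraction as well. Of 17 genes shared by all leukocytes, such as Ptprc (CD45) and Coro1a, 9 fell and 0 rose. Their median log2 fold change was -0.34, and their summed level was 5303 to 6242 TPM in the iron positive and 6709 to 7123 TPM in the iron negative libraries. Of 14 macrophage genes, 7 fell and 0 rose, with a median of -0.37, and their sum was 26903 to 34289 TPM in the iron positive and 34009 to 35715 TPM in the iron negative libraries. Of 11 endothelial genes, all 11 rose, and their sum was 96.7 to 886 TPM in the iron positive and 33.2 to 53.8 TPM in the iron negative libraries. Of 9 tested fibroblast and mural genes, 7 rose, and the sum was 179 to 1885 TPM in the iron positive and 38.5 to 135 TPM in the iron negative libraries. Other lists held fewer genes: 3 of 6 tested neutrophil, 1 of 4 conventional dendritic cell and 5 of 5 skeletal muscle genes rose, and 1 of 5 plasmacytoid dendritic cell genes fell. The sum over the 38 lymphocyte members was 48.0 (3L), 72.8 (3R), 50.9 (4R) and 63.4 (5L) TPM in the iron positive libraries, against 92.3 (3L), 111 (3R), 121 (4R) and 84.9 (5L) TPM in the iron negative libraries, without overlap.

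When libraries were scaled to the leukocyte genes instead of to all genes, Ighm remained lower and Cd4 lost its call. Scaling to the 17 leukocyte genes raised the median log2 fold change of all genes by 0.26, and scaling to the 14 macrophage genes raised it by 0.33. Ighm was then at -0.76 (adjusted p = 0.028) against the leukocyte list and -0.70 (adjusted p = 0.0229) against the macrophage list. Cd4 was at -0.53 (adjusted p = 0.0601) and -0.46 (adjusted p = 0.0649). Scaled to the leukocyte list, 0 members were called higher and 1 lower, where 19.1% of all tested genes were called higher and 0.352% lower. Scaled to the macrophage list, the members' counts were also 0 and 1, where 36.6% of all tested genes were called higher and 0.427% lower. The median over the 20 tested members was -0.43 against the leukocyte and -0.36 against the macrophage list, with 14 and 13 of 20 negative. Cd3d and Lck turned to small positive values under both scalings.

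**Figure D5:**
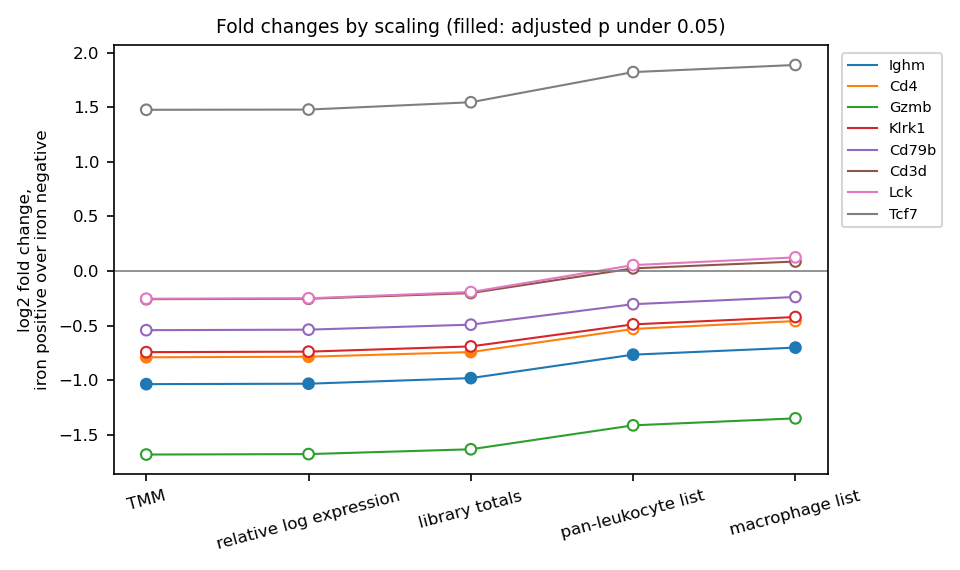
Log2 fold change of iron positive over iron negative for 8 lymphocyte genes under 5 ways of scaling the libraries, filled where the adjusted p is under 0.05. Every gene moves up by about the same step under the pan-leukocyte and macrophage scalings, where Ighm stays filled and Cd4 does not, and where Cd3d and Lck pass 0.

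A wider set of 95 lymphocyte genes, which are not among the 38, was read in the same fit. Of these, 37 were tested, 3 rose and 3 fell, where 8.49% of all tested genes were called higher and 5.21% lower. Among the 37, 21 fold changes were negative and the median was -0.13. Of the 95, 5 genes (Tcrg-C1, Il13, Il17a, Il22 and Ighg3) had 0 counts in all libraries. The lower ones were Cd72, Bank1 and Ccl5. Cd72, a B cell co-receptor of the lectin family, averaged 199.6 ± 32.8 CPM in the iron positive and 327 ± 18.6 CPM in the iron negative libraries, with a log2 fold change of -0.71 ± 0.12 (adjusted p = 0.0173). Bank1, a B cell scaffold protein, was at -0.50 ± 0.09 (adjusted p = 0.0183), and Ccl5, a chemokine of T and NK cells, at -0.58 ± 0.13 (adjusted p = 0.0260).

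The higher ones are also known outside lymphocytes. Itga2, an integrin chain found on NK cells and also on endothelium and platelets, averaged 3.01 ± 2.82 CPM in the iron positive and 0.193 ± 0.077 CPM in the iron negative libraries (log2 fold change 3.92 ± 0.82, adjusted p = 0.0216). Ebf1, a B cell transcription factor that is also active in fat and stromal cells, averaged 9.82 ± 7.60 CPM in the iron positive and 1.97 ± 0.860 CPM in the iron negative libraries (2.32 ± 0.63, adjusted p = 0.0438). Sdc1, the plasma cell marker CD138 and an epithelial and stromal proteoglycan, averaged 31.2 ± 16.2 CPM in the iron positive and 7.86 ± 2.28 CPM in the iron negative libraries (1.99 ± 0.39, adjusted p = 0.0193). Each of the 3 was highest in iron positive 3R and next in 4R, the libraries with the highest summed levels of endothelial and fibroblast genes, and the part of those cells in the result was not tested. Tcf7 and Gata3 were also highest in iron positive 3R and next in 4R.

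In the wider T cell, gamma-delta T cell, regulatory T cell and cytokine lists no gene passed without the pairing. The T cell genes with the highest levels were Thy1, at 28.7 ± 25.1 CPM in the iron positive and 7.22 ± 2.77 CPM in the iron negative libraries (log2 fold change 1.99 ± 0.64, adjusted p = 0.0720; once tags were paired, 1.69, adjusted p = 0.00977), and Il7r, at 19.6 ± 11.4 and 14.3 ± 8.53 CPM (0.46 ± 0.52, adjusted p = 0.590). Among regulatory genes, Ikzf2 was at -0.26 ± 0.22 (adjusted p = 0.464) and Tigit at -0.24 ± 0.53 (adjusted p = 0.791). Il4, the type 2 cytokine, averaged 0.735 ± 0.120 CPM in the iron positive and 0.400 ± 0.119 CPM in the iron negative libraries, without overlap (log2 fold change 0.88 ± 0.31, adjusted p = 0.0904). Of the gamma-delta receptor genes, Trdc averaged 0.0452 CPM in the iron positive and 0.0352 CPM in the iron negative libraries, and Tcrg-C2 0.0126 and 0.0109 CPM. Il17f had 0.455 ± 0.219 CPM in the iron positive and 0.166 ± 0.110 CPM in the iron negative libraries and was not tested. The receptor chain gene Trac and the inhibitory receptor gene Ctla4, singled out after their values were seen, were at -1.47 ± 0.60 (adjusted p = 0.137) and -1.95 ± 0.67 (adjusted p = 0.0869), and with the tag as a block at -1.41 (adjusted p = 0.0360) and -1.96 (adjusted p = 0.00526). The receptor's beta chain gene Trbc2 did not share this fall, at 0.14 ± 0.55 (adjusted p = 0.887), or 0.15 with the tag as a block (adjusted p = 0.657). Trbc2 held 214 counts in the iron positive and 199 in the iron negative libraries, while Trac held 39 and 111.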

How the data were processed

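Bulk RNA-seq of 8 libraries was used. Per the submitters' processing notes, kallisto 0.46.2 and build mm10 were used; the sources used here name no release of the transcripts. Per the file headers, each deposited table holds estimated counts per transcript, not normalized, TPM made by the authors' run, and transcript lengths as other values. Of 119414 transcripts, 116728 matched GENCODE M21 (GRCm38) by identifier, and the 2686 unmatched ones (0.888% to 0.961% of counts) were left out. Counts were summed per gene and rounded.

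Genes were kept with filterByExpr and scaled by TMM. The test was edgeR 4.0.16 (R 4.3.3), quasi-likelihood F-test on fraction alone, with Benjamini-Hochberg adjustment over 13343 genes. Unless another tool is named, adjusted p-values come from it. The SE is the absolute coefficient over the square root of F, which is approximate. Alternatives were DESeq2 1.42.0, limma 3.58.1 (voom, and log2(TPM + 0.5) or log2(TPM + 0.1)), other scalings and filters, libraries left out, and the tag as a block. Intervals and floors cover counting error only, and a floor covers that of the group at 0 alone. Steps were tested on simulated data.

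Libraries of equal tag, a label shared across fractions, deviated together (correlations of 0.53 for 3L, 0.52 for 3R, 0.27 for 4R and 0.30 for 5L, all above the limit of 0.1). They were taken as pairs in the blocked fit only. Libraries of unlike tag ranged from -0.47 to 0.26, and some passed the limit too. Iron positive 4R with iron negative 3R had 0.26, close to the 0.27 of tag 4R, and iron positive 5L with iron negative 3L had 0.23. The limit alone therefore does not set pairs apart. No replicates agreed within counting noise, since the chi-square per gene was 43.9 to 112 in iron positive pairs and 9.38 to 26.9 in iron negative pairs.

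The members and gene lists were chosen with earlier results of these data known. All members were named. Of each wider list the text names up to 4 called genes with the smallest adjusted p, or the 2 with the highest level where none was called. Trac, Trbc2, Ctla4, Ighd, Iglc2 and the genes at 0 were named after their values were seen, as were Ptprc, Coro1a and Csf1r.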

Additional observations from a re-analysis of the deposited data

Results flagged for a closer look

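In 40 sets of 4 libraries (20 tested members in each fraction), 2 held a library far from the other 3, and chance alone flags about 1 in 20. Cd3d was 2.06 CPM in iron negative 4R, while the next highest iron negative library had 1.07 and the lowest 0.870 CPM. Gata3 was 1.43 CPM in iron negative 5L, while the next highest iron negative library had 0.928 and the lowest 0.877 CPM. Neither gene passed the test with or without the library concerned.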

How the results depend on the processing

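Across settings, Ighm and Cd4 stayed negative, with log2 fold changes of -1.25 to -0.70 for Ighm and -0.90 to -0.46 for Cd4. The 2 lower members became 7 (and 1 higher in place of 0) with the tag as a replicate block, 4 in DESeq2, and 1 under macrophage or pan-leukocyte scaling. Leaving out single libraries gave 0 to 4 lower members, and leaving out a tag from the block gave 2 to 6 lower and 0 to 1 higher. The blocked pairing changed no other member's call.

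Over all tested genes, 1133 were higher and 695 lower. The replicate block gave 1705 and 1253, DESeq2 1703 and 1070, voom 189 and 273, macrophage scaling 4888 and 57, pan-leukocyte scaling 2550 and 47, log2(TPM + 0.5) 540 and 252, and log2(TPM + 0.1) 706 and 270. Library totals gave 362 lower genes. Without single libraries there were 0 to 1454 higher and 0 to 964 lower genes, with 0 of either without iron negative 3L, 3R or 4R and 399 and 215 without iron positive 4R. With a tag left out of the block there were 714 (4R) to 1589 higher and 207 (4R), 262 (3L), 826 (3R) and 967 (5L) lower genes.

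Of the wider genes, 3 were higher and 3 lower. The block gave 6 lower, and called Thy1 higher (adjusted p = 0.00977) along with Itga2, Ebf1 and Sdc1. DESeq2 gave 6 lower, both leukocyte scalings 6 higher and 1 lower, voom 0 higher and log2(TPM + 0.5) 1 higher. Leave-one-out fits gave 0 to 4 higher and 0 to 3 lower, and with a tag left out of the block 2 to 4 higher and 3 (3L), 5 (3R), 2 (4R) and 8 (5L) lower.

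The sign of 6 weakly measured members turned (log2 fold changes). With macrophage scaling Cd3d was 0.088, Lck 0.13 and Ms4a1 0.022, and with pan-leukocyte scaling Cd3d was 0.025 and Lck 0.055. On log2(TPM + 0.5) Lck was 0.39, Zap70 -0.088 and Gata3 -0.19, and on log2(TPM + 0.1) 0.47, -0.21 and -0.31. Without single libraries Cd3d was -0.49 to 0.099 (positive without iron negative 4R), Cd2 -0.67 to 0.040 and Lck -0.66 to 0.031 (both highest without iron negative 3R). Zap70 was -0.12 (without iron positive 4R) to 0.63, Gata3 -0.24 (without iron positive 3R) to 0.70, and Ms4a1 -0.49 to 0.054 (without iron positive 3R). In the block without tag 4R, Cd3d was 0.075 and Zap70 -0.019, and without 3R Cd2 was 0.42, Zap70 -0.16, Gata3 -0.34 and Ms4a1 0.021. The causes were not tested. Counts under 100 per fraction limit most members.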
